A study of Mus musculus with 3 samples.

Results

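Dual-specificity MAP kinase phosphatases were followed in RAW macrophages stimulated with LPS after treatment with *L. rhamnosus* CRL1505 or *L. plantarum* CRL1506. The set held 10 genes, *Dusp1*, *Dusp2*, *Dusp4*, *Dusp5*, *Dusp6*, *Dusp7*, *Dusp8*, *Dusp10*, *Dusp14* and *Dusp16*, which were chosen by name among the 26840 genes with a symbol on a 1-colour mouse gene expression microarray. All of them were on the array, with 17 of its 56605 gene probes. RAW 264.7, the line named in the labels, is an established mouse macrophage line, so that the values describe 1 cultured line and no tissue. There was 1 array for each of 3 groups. One group received LPS alone at 50 ng/mL, and the others, named CRL1505 + LPS and CRL1506 + LPS, first received the respective lactobacilli at 50000000 cells/mL for 24 h, were washed and were then given the same LPS. The design text gives 12 h of LPS, while the sample descriptions give 3 h. Because LPS was given to every group and arrays without LPS were not analysed here, the values below show how each strain differed from LPS alone and not what LPS did.

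MAP kinases (ERK, JNK and p38) carry the signal of TLR4 to the nucleus and are switched on by phosphorylation of a threonine and a tyrosine in their activation loop. Dual-specificity phosphatases remove both phosphates and thereby end the signal. In macrophages many of their genes are themselves induced by the MAP kinases that they switch off, and *Dusp1* is known as a brake on p38 and on the production of inflammatory cytokines after LPS. Members differ in where they act and on which kinase. *Dusp1*, *Dusp2*, *Dusp4* and *Dusp5* encode inducible nuclear enzymes, *Dusp6* and *Dusp7* cytoplasmic enzymes that prefer ERK, and *Dusp8*, *Dusp10* and *Dusp16* enzymes that prefer JNK and p38, while *Dusp14* encodes a small atypical enzyme without the kinase-binding domain of the others.

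With 1 array per group there is no replicate check, and neither a test nor a p-value is given. LPS and CRL1506 + LPS were hybridised on the same slide and scanned in 1 run, CRL1505 + LPS on a different slide and in a different run, so that an effect of this strain cannot be told apart from one of its slide. Levels are log2 signals relative to the 75th percentile of all gene spots on the array, and a ratio is a difference of such levels. The 75th percentile of the signal was 517.0 for CRL1505 + LPS, lower than the 743.1 of LPS and the 697.9 of CRL1506 + LPS, and between 48.5% and 55.3% of gene spots were well above background. The median SD of a log2 ratio was between 0.04 and 0.05 over repeated spots of a probe and thus within an array. Between different probes of a gene it was 0.23 when CRL1505 + LPS was compared with LPS, 0.21 when CRL1506 + LPS was, and 0.32 between the strains. Neither SD measures variation between cultures or repeated arrays, so a ratio beyond it is not thereby shown to be an effect of a strain. Of the macrophage markers *Cd68*, *Adgre1*, *Lyz2*, *Csf1r*, *Itgam*, *Cd14*, *Fcgr1* and *Spi1*, 8 of 8 were well above background on every array, and their summed signal was 563.7 to 696.0 times the 75th percentile. The sum hides differences of single markers between the arrays. In LPS, CRL1505 + LPS and CRL1506 + LPS, the level of *Adgre1* was 2.61, 4.88 and 3.62, and that of *Fcgr1* 2.67, 5.07 and 3.62. *Csf1r* went the other way, at 7.34, 5.87 and 6.47. Among markers of T cells, B cells, fibroblasts and epithelial cells, 3 of 5, 2 of 4, 0 to 3 of 4 and 0 to 1 of 4 were well above background, with summed signals of 2.72 to 2.95, 0.19 to 0.29, 0.12 to 0.43 and 0.07 to 0.31, respectively. In RNA from whole cultures, fewer cells expressing a gene and less RNA per cell cannot be told apart.

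Of the 10 phosphatase genes, 9 were well above background on all arrays and could be compared between CRL1505 + LPS and LPS. *Dusp10*, *Dusp1*, *Dusp2*, *Dusp5* and *Dusp7* were at least 2-fold higher in CRL1505 + LPS, *Dusp8* was at least 2-fold lower, and *Dusp4*, *Dusp6* and *Dusp16* differed by less than 2-fold. Over all genes compared, 9.92% were higher by this measure and 8.41% lower. The median log2 ratio was 1.08 over the phosphatases and 0.06 over the 13242 genes measured on both arrays. By brightest probes, 0 of 10 phosphatase genes in CRL1506 + LPS passed 2-fold against LPS in either direction. Of all genes, 5.67% were higher and 3.52% lower, and among 10 genes a count of 0 cannot be told apart from these shares. Another probe did pass 2-fold for *Dusp16* (log2 ratio 1.25) and for *Dusp8* (-1.02). The median log2 ratio was -0.01 over the phosphatases against -0.06 for all measured genes. The single-gene values behind these counts follow by role.

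**Figure D1:**
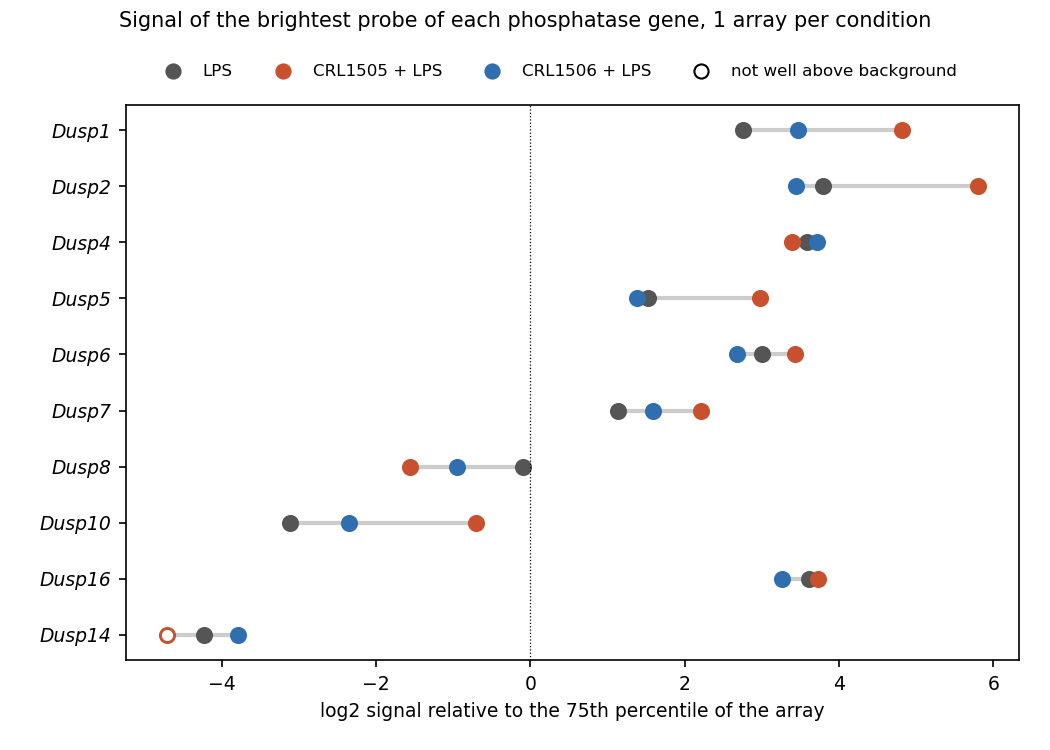
Level of the brightest probe of each phosphatase gene on the 3 arrays, as log2 signal relative to the 75th percentile of the array (horizontal axis), with 1 point per array. CRL1505 + LPS lies highest for *Dusp1*, *Dusp2*, *Dusp5*, *Dusp6*, *Dusp7*, *Dusp10* and *Dusp16* and lowest for *Dusp4*, *Dusp8* and *Dusp14* (the last not well above background there), and positions can be compared within a gene but not between genes, whose probes differ.

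The stretch before the start of a gene is where many of the transcription factors that MAP kinases act on can bind. Since *Dusp1*, *Dusp2*, *Dusp5* and *Dusp10* were the genes furthest above LPS in CRL1505 + LPS and *Dusp8* was the one furthest below, the 250 bases before their start in RefSeq (GRCm38.p6) are shown, which lie at chr17:26508473-26508722 (minus strand), chr2:127335909-127336158 (plus), chr19:53528895-53529144 (plus), chr1:184034131-184034380 (plus) and chr7:142095285-142095534 (minus). The sequences run 5′ to 3′ on the strand of the gene. Capitals mark matches, on either strand, to TGACG (the core of a cAMP response element, CRE), TGANTCA (AP-1), CACGTG (E-box), TATAAA, the CArG box of serum response factor and the NF-kB motif.
Dusp1: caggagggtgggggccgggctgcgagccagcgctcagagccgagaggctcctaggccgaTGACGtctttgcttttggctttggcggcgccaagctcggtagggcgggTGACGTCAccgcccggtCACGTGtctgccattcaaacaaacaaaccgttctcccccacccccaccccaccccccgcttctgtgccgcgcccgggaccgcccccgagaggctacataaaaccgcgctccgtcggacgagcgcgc
Dusp2: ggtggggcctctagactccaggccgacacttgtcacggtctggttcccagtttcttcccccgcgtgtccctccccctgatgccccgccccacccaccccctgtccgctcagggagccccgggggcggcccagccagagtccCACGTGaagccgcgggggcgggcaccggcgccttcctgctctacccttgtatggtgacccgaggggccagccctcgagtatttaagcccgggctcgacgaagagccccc
Dusp5: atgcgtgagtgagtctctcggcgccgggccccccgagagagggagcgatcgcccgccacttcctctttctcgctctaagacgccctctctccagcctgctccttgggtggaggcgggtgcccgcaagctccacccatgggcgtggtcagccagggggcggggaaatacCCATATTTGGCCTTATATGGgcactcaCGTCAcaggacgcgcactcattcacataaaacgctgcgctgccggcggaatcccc
Dusp10: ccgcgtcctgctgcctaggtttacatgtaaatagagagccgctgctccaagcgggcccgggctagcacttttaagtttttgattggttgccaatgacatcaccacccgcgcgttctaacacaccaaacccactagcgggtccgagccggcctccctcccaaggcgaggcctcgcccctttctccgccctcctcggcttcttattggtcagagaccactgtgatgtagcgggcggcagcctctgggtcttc
Dusp8: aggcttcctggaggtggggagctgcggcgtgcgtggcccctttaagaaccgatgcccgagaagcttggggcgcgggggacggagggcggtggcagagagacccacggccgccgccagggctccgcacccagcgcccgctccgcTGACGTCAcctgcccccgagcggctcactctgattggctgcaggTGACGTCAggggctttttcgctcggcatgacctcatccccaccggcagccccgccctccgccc

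The window of *Dusp1* held the full CRE, TGACGTCA, at bases -143 to -136 from the start, a further TGACG at -191 to -187 and a CACGTG at -126 to -121. That of *Dusp2* held CACGTG at -109 to -104 and no TGACG. The window of *Dusp5* held 2 CArG boxes, CCATATTTGG at -82 to -73 and CCTTATATGG at -72 to -63, which lie next to each other without overlap, and the complement of TGACG at -55 to -51. *Dusp8*, the gene that was lower, held the full CRE at both -107 to -100 and -63 to -56, and *Dusp10* held none of the motifs in capitals. Among 32851 such windows of RefSeq genes, 1.55% held the full CRE, 17.8% TGACG, 6.02% CACGTG, 6.75% TGANTCA, 12.4% TATAAA, 1.47% a CArG box and 7.25% the NF-kB motif. A full CRE, which contains TGACG on both strands, was in 2 of the 9 member windows, TGACG in 4, CACGTG in 2, a CArG box in 1 and each of the other motifs in 0. The table used holds no window for *Dusp4*. G and C made up 56.4% (*Dusp6*) to 77.2% (*Dusp7*) of the member windows, and the median over all windows was 52.4%. The shares above are thus not those of windows of like composition, and 9 windows are too few to set against them. Full CREs thus stood before a gene that was higher and before the gene that was lower. Letters alone do not show that a factor binds.

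Among the nuclear enzymes, *Dusp1* encodes the phosphatase of p38 and JNK that is best known from LPS-treated macrophages. Its only probe (chr17:26642624-26642683 on mm9, the build of the probe positions) had a level of 2.75 in LPS, 4.82 in CRL1505 + LPS and 3.47 in CRL1506 + LPS. *Dusp1* was thus highest in CRL1505 + LPS, 4.18-fold above LPS (log2 ratio 2.06), and 98.7% of measured genes had a lower ratio. CRL1506 + LPS lay between, with a log2 ratio of 0.72 to LPS that is under 2-fold but larger than the SD between probes. Over 7 other normalizations the log2 ratio of *Dusp1* ranged from 1.56 to 2.36 with CRL1505 and from 0.52 to 0.82 with CRL1506.

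*Dusp2* encodes a nuclear phosphatase that is abundant in activated immune cells. Its level was 3.80 in LPS, 5.80 in CRL1505 + LPS and 3.44 in CRL1506 + LPS (1 probe, chr2:127163930-127163989). Only the CRL1505 + LPS array stood high, 4.01-fold above LPS, and it passed 2-fold in 7 of 7 other normalizations. In CRL1506 + LPS the log2 ratio was -0.35, which is 1.28-fold lower, and it stayed negative over the other normalizations, between -0.55 and -0.24.

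*Dusp5* encodes a nuclear phosphatase specific for ERK. Its brighter probe (chr19:53616779-53616838) had a level of 1.53 in LPS, 2.98 in CRL1505 + LPS and 1.39 in CRL1506 + LPS. CRL1505 + LPS was 2.73-fold above LPS, while CRL1506 + LPS differed from LPS by -0.14, less than the SD between probes. The dimmer probe had log2 ratios of 1.39 and -0.27. When the arrays were shifted by spike-in probes, the log2 ratio for CRL1505 came to 0.94, just under 2-fold, and it was between 1.32 and 1.74 in the other normalizations.

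*Dusp4* encodes another nuclear phosphatase, which acts on ERK and JNK. Here the arrays lay close together. Its brighter probe (chr8:35882045-35882104) had a level of 3.59 in LPS, 3.40 in CRL1505 + LPS and 3.72 in CRL1506 + LPS, so that all arrays lay within 0.32 of each other. Its log2 ratio to LPS was -0.19 for CRL1505 and 0.13 for CRL1506, and 0.00 and 0.21 with its other probe. Each of these is within the SD between probes. The ratio for CRL1505 depended on the normalization, at 0.10 with the median shift, between -0.37 and -0.28 in 5 others, which is beyond that SD, and at -0.70 with the spike-in shift. For CRL1506 it ranged from -0.07 to 0.23.

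*Dusp6* and *Dusp7* encode cytoplasmic phosphatases of ERK. The single probe of *Dusp6* (chr10:98729985-98730044) had a level of 3.00 in LPS, 3.43 in CRL1505 + LPS and 2.68 in CRL1506 + LPS. LPS lay between both strains, with log2 ratios of 0.43 for CRL1505 and -0.32 for CRL1506, but for CRL1505 the sign turned with the spike-in shift, to -0.08. *Dusp7* (chr9:106277697-106277756) had a level of 1.14 in LPS, 2.22 in CRL1505 + LPS and 1.59 in CRL1506 + LPS. It was higher with both strains, by 2.11-fold for CRL1505 (log2 ratio 1.08) and 1.37-fold for CRL1506 (0.46). For CRL1505 *Dusp7* stood close to the threshold, and it passed 2-fold in 3 of 7 other normalizations, with 0.57 at the lowest.

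Of the phosphatases of JNK and p38, *Dusp10* had a larger ratio than *Dusp1* and *Dusp2* in 5 of 7 other normalizations as well as here, but a smaller one with normexp correction (1.63 against 1.93 and 1.87) and with the deposited table (1.65 against 1.85 and 1.88). Its probe (chr1:185898608-185898667) was dim, with a signal of 85.5 in LPS, 317.6 in CRL1505 + LPS and 136.7 in CRL1506 + LPS, but well above background on each array. Its levels were -3.12, -0.70 and -2.35, respectively. The level of *Dusp10* with CRL1505 was 5.34-fold that in LPS (log2 ratio 2.42), a ratio that 99.3% of measured genes did not reach, and 1.70-fold higher in CRL1506 + LPS (0.77). The smallest values over the other normalizations were 1.63 for CRL1505, with normexp correction, and 0.23 for CRL1506, with the deposited table. The size of these ratios thus depended on the normalization, while their sign did not. All of these values come from the same spots of 1 probe, so they cannot show how certain a direction is.

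*Dusp8* was the member that was lower. Its brighter probe (chr7:149265636-149265695) had a level of -0.09 in LPS, -1.55 in CRL1505 + LPS and -0.95 in CRL1506 + LPS, so that LPS alone was highest. The log2 ratio was -1.47 for CRL1505, which is 2.76-fold lower, and -0.86 for CRL1506. The other probe (chr7:149267534-149267593) also had its highest level in LPS, with ratios of -0.74 and -1.02. Both probes were thus lower with both strains, but they differed in which strain was lower and in which ratio passed 2-fold. The ratio of the brighter probe for CRL1506 passed 2-fold only with the median shift, at -1.06.

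*Dusp16* was measured by 3 probes. The brightest (chr6:134665656-134665696) had a level of 3.61 in LPS, 3.73 in CRL1505 + LPS and 3.26 in CRL1506 + LPS, with log2 ratios of 0.12 and -0.35 to LPS. The next one (chr6:134665783-134665842) had 0.08 and -0.35. Another, dim probe (chr6:134687549-134687608), designed to another transcript of the gene, had a level of -2.10 in LPS, -1.41 in CRL1505 + LPS and -0.85 in CRL1506 + LPS, and its ratio to LPS was 0.68 and 1.25. For CRL1506 the probes of *Dusp16* therefore pointed in different directions, and the mean over probes was 0.18. The sign of the brightest probe for CRL1505 also turned with quantile normalization (-0.03) and with the spike-in shift (-0.38).

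*Dusp14* was near the background. Its brightest probe (chr11:83861547-83861606) was well above background in LPS, with a level of -4.23, and in CRL1506 + LPS, with -3.79, but not in CRL1505 + LPS. Neither of the other 2 probes reached this mark on an array. CRL1506 + LPS had a log2 ratio to LPS of 0.44, with 0.01 and 0.53 as the extremes of the other normalizations, and no fold can be given for CRL1505 + LPS against LPS.

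**Figure D2:**
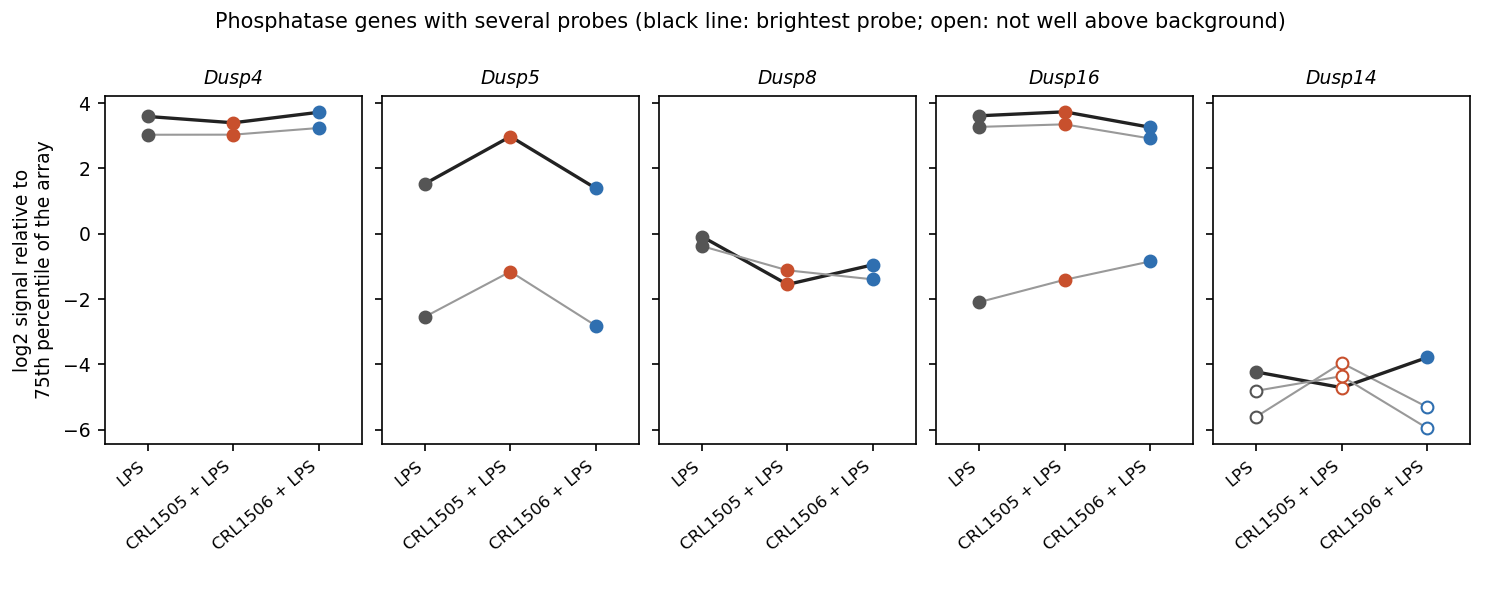
Levels of every probe of the phosphatase genes with more than 1 probe, as log2 signal relative to the 75th percentile of the array (vertical axis), with 1 point per array. The probes of *Dusp4* and *Dusp5* run alongside each other, those of *Dusp8* share their highest level in LPS, and the dim probe of *Dusp16* is highest in CRL1506 + LPS, where the brighter ones are lowest.

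The direct comparison of both strains does not use the LPS array. In CRL1505 + LPS, 4 of 10 phosphatase genes compared were 2-fold or more above CRL1506 + LPS and 0 were 2-fold or more below. Of all genes compared, 9.01% were above and 7.46% below. Among 10 genes a count of 0 cannot be told apart from the latter share. *Dusp2* had the largest difference, 5.12-fold (log2 ratio 2.36), followed by *Dusp10* with 3.14-fold (1.65), *Dusp5* with 3.01-fold (1.59) and *Dusp1* with 2.54-fold (1.35). Of these, *Dusp1* came to 0.96 with the spike-in shift, and the others passed 2-fold in 7 of 7 other normalizations. *Dusp6* (0.75) and *Dusp7* (0.62) were under 2-fold and passed it only with the median shift, at 1.25 and 1.12. *Dusp16* (0.47), *Dusp4* (-0.32) and *Dusp8* (-0.60) were also under 2-fold, and for *Dusp14* CRL1505 + LPS lay at least 1.26-fold below CRL1506 + LPS. This bound on the log2 scale (-0.34) was between -0.72 and -0.0034 in 5 other normalizations, and the median shift and quantile normalization gave no bound. The median log2 ratio between the strains was 0.75 over the 9 members measured and 0.09 over 13316 genes.

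**Figure D3:**
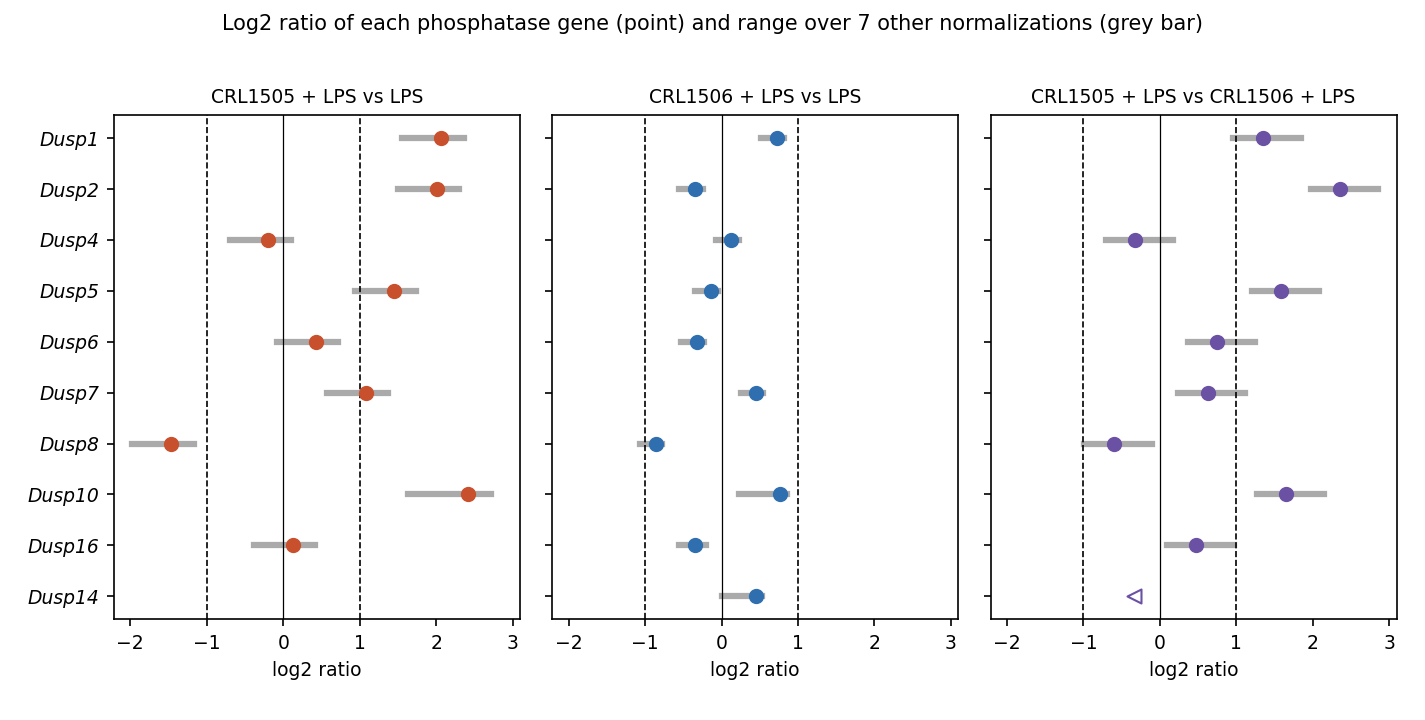
Log2 ratio of each phosphatase gene in the 3 comparisons (points), with the range over 7 other normalizations (grey bars), the 2-fold threshold (dashed lines) and, for *Dusp14* between the strains, a bound (open triangle). In CRL1505 + LPS against LPS the points of *Dusp1*, *Dusp2* and *Dusp10* and their whole ranges lie above 2-fold and *Dusp8* lies below, whereas in CRL1506 + LPS against LPS every point lies between the dashed lines.

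Both comparisons with LPS share the LPS array, so their values are set side by side only. By brightest probes, 8 of the 9 members measured on all arrays lay further from LPS in CRL1505 + LPS than in CRL1506 + LPS. So did 64.8% of the 13126 genes measured on all arrays. *Dusp16* was the member whose brightest probe lay further from LPS in CRL1506 + LPS. The other probes of *Dusp8* (-0.74 for CRL1505 and -1.02 for CRL1506) and *Dusp4* (0.00 and 0.21) also lay further there. With the spike-in shift *Dusp6* did as well (-0.08 and -0.45). The median absolute log2 ratio of the members was 1.45 for CRL1505 and 0.40 for CRL1506, and that of all measured genes was 0.37 and 0.23. *Dusp10* was the member with the largest ratio with the 75th percentile, though not with normexp correction or the deposited table. The genes whose pair of ratios to LPS lay closest to that of *Dusp10* were *Herc6* (2.40 for CRL1505 and 0.79 for CRL1506), *Mndal* (2.44 and 0.75) and *Slfn4* (2.45 and 0.85). Their Euclidean distances were 0.02, 0.03 and 0.09 on the log2 scale over the same 13126 genes and 3 arrays. These distances are below the median SD between probes (0.23 for CRL1505 and 0.21 for CRL1506). Over the other normalizations the ratio of *Dusp10* for CRL1505 itself ranged from 1.63 to 2.71. Whether the same genes lie nearest with other normalizations was not tested.

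**Figure D4:**
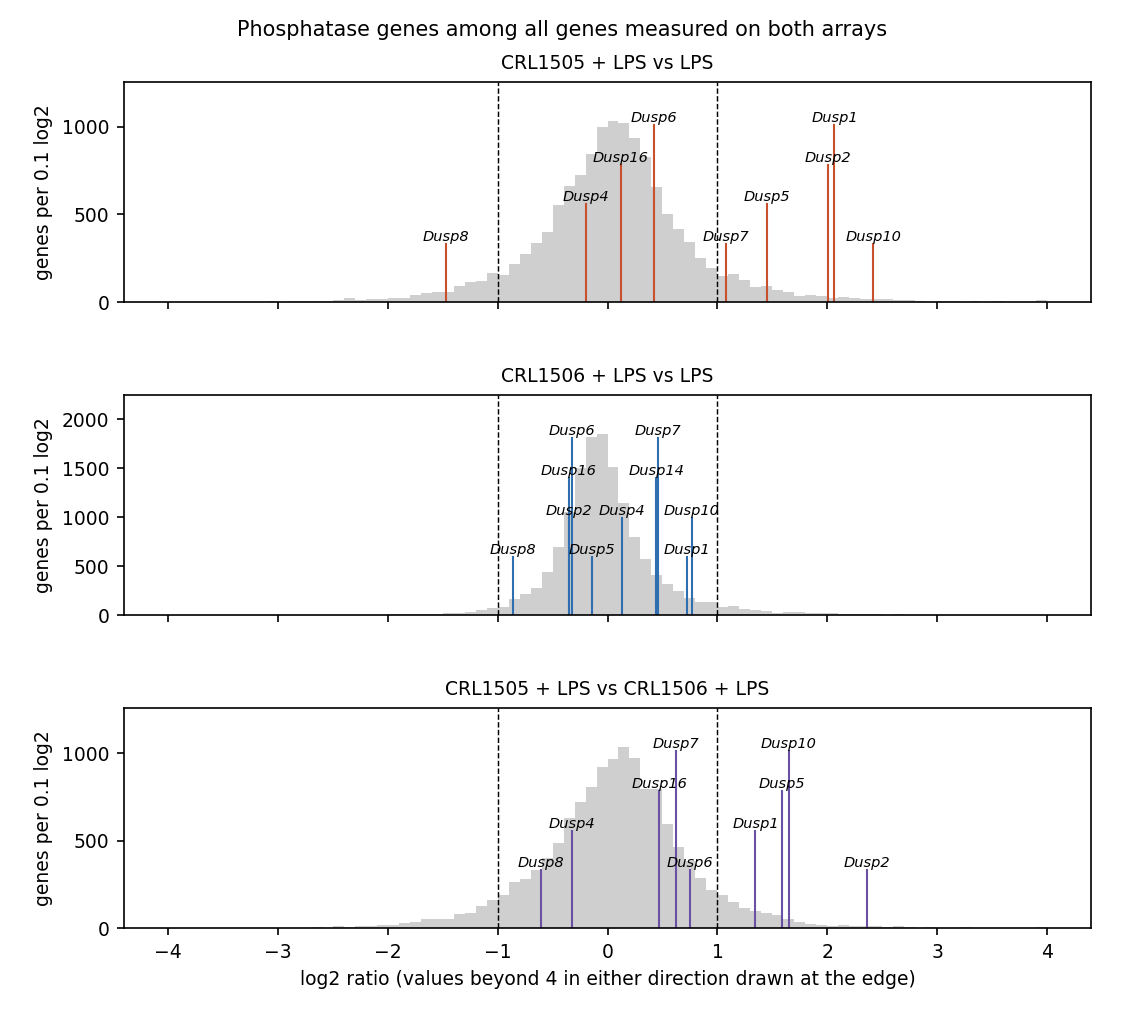
Distribution of log2 ratios over all genes measured on both arrays (grey, number of genes per 0.1 log2) with the phosphatase genes marked by vertical lines, whose heights carry no value. In CRL1505 + LPS against LPS, *Dusp5*, *Dusp2*, *Dusp1* and *Dusp10* stand in the upper tail and *Dusp8* in the lower tail, while in CRL1506 + LPS against LPS all members stand inside the 2-fold lines.

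The phosphatases act at the end of a cascade in which MAP3 kinases activate MAP kinase kinases and these activate MAP kinases. Other genes of this pathway were taken from 9 lists with 108 genes, and after the filter on dim probes 96 of these were compared with CRL1505 and 97 with CRL1506. In CRL1505 + LPS 8 of them (8.33%) stood 2-fold or more above LPS and 9 (9.38%) 2-fold or more below, close to the 9.92% and 8.41% of all genes, and their median log2 ratio was 0.05. In CRL1506 + LPS 2 were higher and 2 lower (2.06% each), against 5.67% and 3.52% of all genes, with a median of -0.17. By their brightest probes 0 of 12 MAP kinases compared passed 2-fold in either strain, a number too small to set against the shares of all genes above. Of the 4 probes of *Mapk8*, which encodes JNK1, the one with the highest ratio stood at 1.12 with CRL1506, past 2-fold, while its brightest probe was at 0.21. Over the MAP kinases measured on both arrays, the log2 ratios of the brightest probes ranged from -0.40 to 0.79 with CRL1505 and from -0.47 to 0.29 with CRL1506.

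Upstream of the MAP kinases, *Map2k1*, the kinase MEK1 that activates ERK, had a level of 1.67 in LPS, 3.01 in CRL1505 + LPS and 1.29 in CRL1506 + LPS. It was thus 2.52-fold higher with CRL1505, and both of its probes were above 2-fold (1.11 and 1.33). *Map2k6*, which encodes an activator of p38, had a log2 ratio of -1.05 with CRL1505 (2.07-fold lower), and *Map3k6* was 2.14-fold lower (-1.09, with its other probe at -0.85). In CRL1506 + LPS these genes had log2 ratios of -0.38, -0.78 and -0.08. Downstream, *Rps6ka5*, the nuclear kinase MSK1, was 3.90-fold higher in CRL1506 + LPS by its brightest probe (1.97), but its 3 probes ranged from -0.93 to 1.97.

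Of 10 phosphatases of MAP kinases outside the set, 0 were higher by 2-fold in either strain, where 9.92% of all genes were with CRL1505 and 5.67% with CRL1506. Lower by 2-fold were 3 with CRL1505 and 0 with CRL1506, beside 8.41% and 3.52% of all genes. A list of 10 genes is too small to set against these shares. In CRL1505 + LPS, *Ppm1d*, a serine/threonine phosphatase of p38, had a log2 ratio of -1.31 and its other probe of -0.59, *Dusp9* of -1.15 and *Dusp3*, a small phosphatase of ERK and JNK, of -1.02. In CRL1506 + LPS the brightest probes of these 3 genes were at -0.07, 0.19 and -0.11. *Dusp11*, which encodes a phosphatase of RNA, was 2.14-fold higher in CRL1505 + LPS, and its log2 ratio was 0.03 with CRL1506. Of the Sprouty genes, which inhibit signalling to ERK, *Spry2* had log2 ratios of 1.09 for CRL1505, with its other probe at 0.48, and of 0.41 for CRL1506. *Spry1* was well above background in LPS alone and was at least 2.28-fold lower with CRL1506 and at least 1.89-fold lower with CRL1505.

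Transcription factors that respond to MAP kinases differed among themselves. *Egr1*, an immediate-early gene, had a level of 0.66 in LPS, 3.12 in CRL1505 + LPS and 2.11 in CRL1506 + LPS, and was 5.50-fold and 2.73-fold higher than in LPS. *Fos*, a subunit of AP-1, had a level of 0.40 in LPS, 2.16 in CRL1505 + LPS and 0.53 in CRL1506 + LPS, with only CRL1505 + LPS standing high, at 3.38-fold. *Fosl1* had log2 ratios of 1.15 and 0.74. *Egr3* was well above background in CRL1505 + LPS alone, where spots near its probe were uneven, and was higher there by at least 1.09 on the log2 scale. Lower in CRL1505 + LPS were *Etv4* (-1.14), *Etv5* (-1.05), which encode ETS factors, and *Fosb*, by at least 2.35-fold, and in CRL1506 + LPS these were at -0.18, -0.29 and 0.58. Of 21 such genes compared for CRL1505, 4 were at least 2-fold higher and 3 lower, with a median log2 ratio of 0.34, where 9.92% and 8.41% of all genes were. Of 20 compared for CRL1506, 1 was higher and 0 lower, with a median of -0.21, beside 5.67% and 3.52% of all genes.

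Of 5 mRNA decay factors, *Zfp36*, which encodes tristetraprolin, a target of the p38 pathway, had a level of 3.80 in LPS, 5.15 in CRL1505 + LPS and 3.69 in CRL1506 + LPS. It was 2.56-fold higher with CRL1505 and had a log2 ratio of -0.11 with CRL1506. On the CRL1506 + LPS array the spot of its only probe, or spots near it, were uneven. *Zfp36l1* was lower with both strains by its brightest probe, at -1.40 and -1.58, while its other probe was at 0.28 and -0.29. Of all pathway genes named here for CRL1505, the log2 ratios of *Egr1* (1.95 at the lowest), *Fos* (1.25) and *Zfp36l1* (-1.10 nearest to 0) stayed past 2-fold in 7 of 7 other normalizations.

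**Figure D5:**
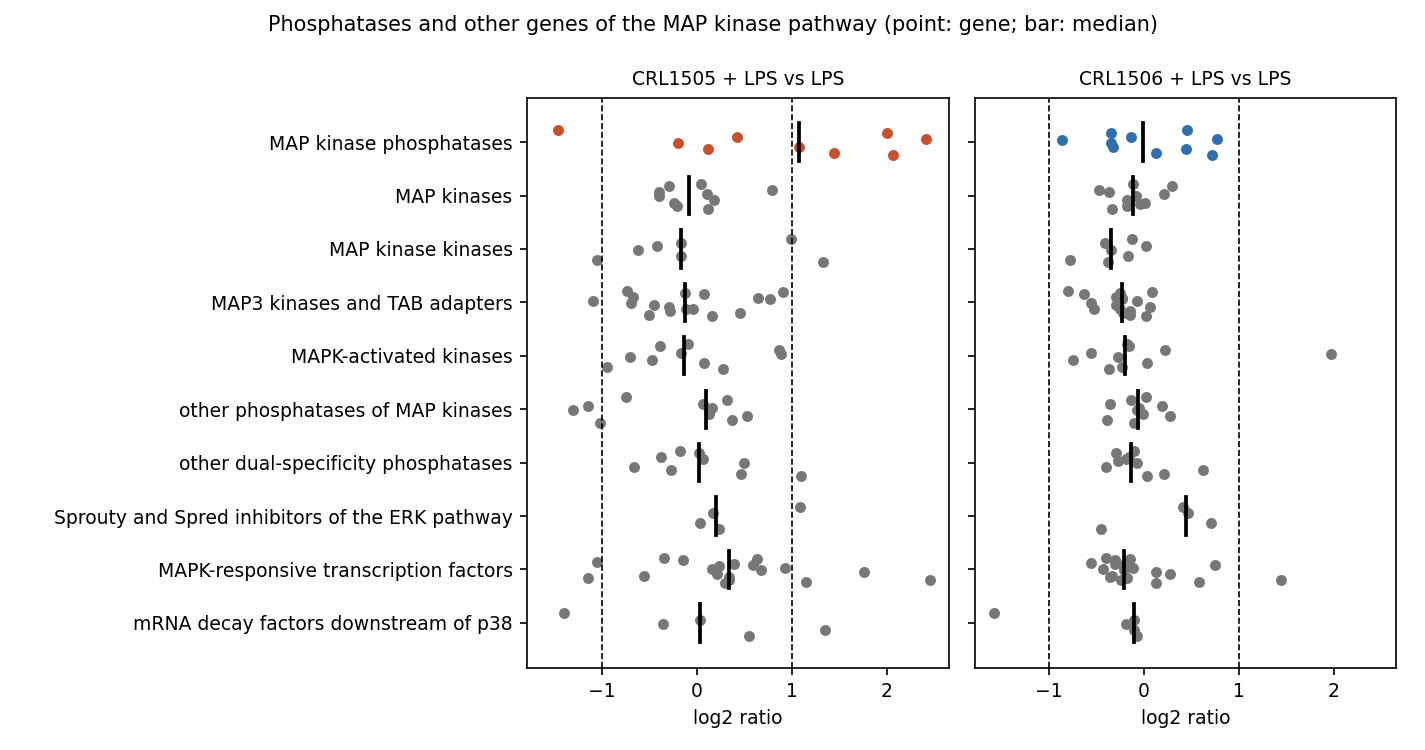
Log2 ratios to LPS of the phosphatase genes (coloured) and of 9 lists of other genes of the MAP kinase pathway (grey), with 1 point per gene measured on both arrays, the median of each list (black bar) and the 2-fold threshold (dashed lines). The median of the phosphatases lies at 1.08 for CRL1505 and at -0.01 for CRL1506, and the medians of the other lists lie between -0.17 and 0.34 and between -0.34 and 0.44.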

How the data were processed

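RNA of RAW macrophages was hybridised in 1 colour (Cy3), with 1 array for each of 3 groups, which were taken from the sample titles. The authors deposited the spot intensities given by the Feature Extraction software (12.0.3.1 in the file headers), which were corrected for background and spatial trends within each array. They also deposited a table of log2 values normalized between arrays, whose setting is not given in the sources used here. These values differed by a median of 0.02 from quantile-normalized median pixel signals after normexp correction.

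Intensities were put on the log2 scale and each array was shifted so that the 75th percentile of its gene spots was 0. Spots marked as outliers were left out (0 for the phosphatase genes), and repeated spots were averaged. A gene was represented by its brightest probe without an outlier spot. Of a pair of arrays with only 1 well above background, the dim side was replaced by the array's lowest signal well above background, unless its own signal was higher, which gives a bound. Bounds under 1-fold and probes not well above background on both sides were left out. The threshold was 2-fold, as in the methods of the study, whose t-test could not be made with 1 array per group. The number of arrays limits the precision. All 10 phosphatase genes were to be named, together with genes of the pathway lists that were at least 2-fold from LPS and the 3 genes nearest to the member with the largest ratio. Members and lists were chosen with earlier results of these data known. Alternatives were 7 other normalizations (median shift, quantile, cyclic loess, normexp with quantile, the deposited table, the percentile taken over probes detected on every array, and a shift by 8 spike-in probes), other filters on spots and dim probes, the mean over probes, and thresholds of 1.5-fold and 4-fold. The procedure was run on simulated data, which were copies of the LPS array with small noise and large changes set into bright genes. Such data check the calculation only, because they hold no variation between slides or cultures. Promoter windows were taken from RefSeq (GRCm38.p6) and found for 9 of 10 genes by symbol.

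Python 3.11.15, pandas 2.3.3, NumPy 2.4.6 and SciPy 1.17.1 were used, and R 4.3.3 with limma 3.58.1.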

Additional observations from a re-analysis of the deposited data

Results flagged for a closer look

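*Dusp2* and *Dusp6* differed from LPS in opposite directions with the 2 strains, and each ratio was larger than the median SD between probes. This SD comes from genes with several probes, while *Dusp2* and *Dusp6* have 1 probe each. It does not measure variation between cultures or repeated arrays. *Dusp2* had a log2 ratio of 2.005 in CRL1505 + LPS and -0.35 in CRL1506 + LPS, and these directions held in 7 of 7 other normalizations. *Dusp6* had log2 ratios of 0.43 and -0.32, and with the spike-in shift the value for CRL1505 came to -0.08. With 1 array per strain the difference between the strains was not tested, and the part of the slide in it was not tested.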

How the results depend on the processing

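By brightest probes, the number of phosphatase genes at least 2-fold from LPS was 6 for CRL1505 and 0 for CRL1506, and 4 differed by 2-fold between the strains. Single dimmer probes of *Dusp8* and *Dusp16* that passed 2-fold with CRL1506 are not in this count. With a 4-fold threshold these numbers were 3, 0 and 1, and with a 1.5-fold threshold 6, 3 and 7. For CRL1506 the number was 1 with the median shift. In every other alternative run the numbers were within 1.5 times of these, from 4 to 6 for CRL1505 and from 3 to 6 between the strains. Over 344 recomputed log2 ratios of single members, 294 moved by less than the SD between probes and 50 by more. Many of the 294 could not move, and those say nothing about stability. Keeping outlier spots or dropping uneven ones altered no member ratio or count, because 0 member probes had such spots. Other filters for dim probes left the ratios of all members but *Dusp14* as they were. Averaging could not alter the 5 members with 1 probe. Of the 344, the sign differed in 7, each for a member under 2-fold (*Dusp4*, *Dusp6* and *Dusp16*). Another 6 fell under 2-fold (*Dusp7* in 4, *Dusp5* and *Dusp1* in 1 each) and 3 came above it.

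The scaling of the arrays moved all genes together. The median log2 ratio of all measured genes, 0.06 for CRL1505, -0.06 for CRL1506 and 0.09 between the strains, became 0.35, -0.26 and 0.58 with the median shift and -0.45, -0.19 and -0.30 with the spike-in shift. Of the genes past 2-fold, the share that was higher, 54.1%, 61.7% and 54.7%, became 76.1%, 43.5% and 89.0% with the former and 20.2%, 51.4% and 23.9% with the latter. It was 51.5% for CRL1506 with quantile normalization, and between the strains 66.1% with cyclic loess and 36.5% with the percentile over probes detected on all arrays. The number of genes past 2-fold, 2861, 1497 and 2600, was 5905, 3391 and 5842 without a filter on dim probes, 1865, 759 and 1691 with probes well above background on all arrays, 1765, 705 and 1495 with the deposited table, 1751, 746 and 1484 with normexp, 5657, 3401 and 5736 at 1.5-fold and 707, 354 and 545 at 4-fold. For CRL1506 it was 977 without uneven spots, and between the strains it was 3952 with the median shift. The causes were not tested.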
